A study of Mus musculus with 2 samples.

Results

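10 genes that govern how many mitochondria a cell makes were read in cultured mouse macrophages and osteoclasts, the cells that resorb bone. They are the PGC-1 coactivators Ppargc1a, Ppargc1b and Pprc1, the transcription factors Esrra, Nrf1 and Gabpa, and the mitochondrial factors Tfam, Tfb1m, Tfb2m and Polg. Members were chosen by gene name, as every probe set annotated to exactly 1 of these symbols, which gave 23 probe sets of 10 genes among 34945 probe sets of 18193 genes. Each cell type was measured on 1 Affymetrix array, so no test is possible and no p-value is given. Per the labels, both arrays are from C57/Black6 mice aged 8 weeks, whose marrow cells were grown with M-CSF (macrophage colony-stimulating factor) for 3 days, and adherent cells were kept as progenitors. Macrophages then received M-CSF alone for 6 days, and osteoclasts received both M-CSF and RANKL, the signal for osteoclast formation, over the same 6 days. The labels name no genetic change in either group, and do not say how many animals gave cells or whether the arrays share animals.

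PGC-1 proteins do not bind DNA themselves: they dock on transcription factors and recruit enzymes that open chromatin. Their partners include estrogen-related receptor alpha (Esrra), nuclear respiratory factor 1 (Nrf1) and GA-binding protein (Gabpa), which switch on nuclear genes for respiration and for the upkeep of mitochondrial DNA. Tfam, Tfb1m, Tfb2m and Polg act inside the organelle, where its own genome is packaged, transcribed and copied. Osteoclasts are rich in mitochondria, and Ppargc1b is known as the coactivator that their mitochondrial biogenesis relies on.

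Several members are themselves reported targets of the factors in the same set, so the members' promoters were searched for short motifs. A match of letters does not show that a factor binds there. The RefSeq promoter windows of build GRCm38.p6, each from 250 bases before to 50 bases after a transcription start, held 10 windows for 9 of the 10 members, all but Ppargc1b. An ETS motif of the kind GABP binds, CGGAAG on either strand, was found in the windows of 4 members, Gabpa, Tfam, Tfb2m and Polg, and in 16.9% of all 32851 windows. A core of the NRF-1 motif, CATGCGC on either strand, was found in 2, Esrra and Tfb2m, against 3.91% of all windows. Both motifs contain a CG, and the member windows with a match held 21 to 32 CG dinucleotides, against a median of 7 over all windows. Their GC content was 59.3% to 70.3%, against a median of 52.7%. The shares over all windows thus come from windows of unlike composition, and no enrichment is read from them. The motifs do not overlap each other, and the windows of Ppargc1a, Pprc1, Nrf1 and Tfb1m held neither. The ERR motif AAGGTCA (4.72% of all windows), the AP-1 motif TGANTCA (7.81%) and the cyclic AMP response element TGACGTCA (1.79%), searched on both strands, were in none of the member windows, which says only that these letters are not there. The stretches below show each matching promoter 5′ to 3′ on the gene's strand, with the match in capitals. They are shown because these are the members whose promoters carry the letters of a site that a member's product binds, which for Gabpa is its own.
Esrra, NRF-1 core, chr19:6921809-6921868, minus strand: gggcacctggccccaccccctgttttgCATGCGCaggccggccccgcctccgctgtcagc
Tfam, ETS, chr10:71238058-71238117, minus strand: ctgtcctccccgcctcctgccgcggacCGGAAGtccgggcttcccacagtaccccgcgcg
Polg, ETS, chr7:79466278-79466337, minus strand: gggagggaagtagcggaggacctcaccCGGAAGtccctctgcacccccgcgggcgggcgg
Tfb2m, ETS twin match, chr1:179546277-179546336, minus strand: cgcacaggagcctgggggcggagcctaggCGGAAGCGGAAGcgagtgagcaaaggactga
Tfb2m, NRF-1 core, chr1:179546246-179546273, minus strand: taggtcgttcgCATGCGCcattcgtaat
Gabpa, ETS on the opposite strand, chr16:84835004-84835063, plus strand: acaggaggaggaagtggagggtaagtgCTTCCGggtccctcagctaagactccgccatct
Counted from the transcription start, with negative numbers before it, the match begins at -33 in Esrra, -46 in Tfam, -37 in Polg and -93 in Gabpa. In Tfb2m the ETS letters begin at -31 and -25 and again at 37, and the NRF-1 core begins at 15.

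Signals are the deposited intensities, and a signal counts as measured when it reaches the floor, the 40th percentile of all probe sets, 17.0 for the macrophage array and 14.4 for the osteoclast array. The median log2 difference, osteoclast over macrophage, was -0.43 over 23708 probe sets measured in both arrays. Differences below are log2 of osteoclast over macrophage relative to this shift, and a deposited difference is 0.43 lower. A gene is read from its brightest probe set. The only error available is the SD of the difference between probe sets of the same gene, 0.49 as a log2 value (14641 probe sets, 5435 genes), which holds no variation between cultures or animals. Markers mostly went with the labels. All 11 osteoclast markers were at least 2-fold higher in the osteoclast array (median 5.10), where 7.11% of all measured genes were. Of 10 macrophage markers, 6 were at least 2-fold lower there (median -1.68), where 6.99% of all measured genes were. The other macrophage markers were Itgam (-0.91), Cd14 (-0.46), Csf1r (-0.29) and Cd68 (0.032), the last at the shift. Xist, an RNA of female cells, had a signal of 1872 in the macrophage array against 22.1. The Y-linked gene Eif2s3y had 0.571, below the floor, against 321. The effect of RANKL and a difference between the animals therefore cannot be told apart.

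Ppargc1b, the PGC-1 beta coactivator, stood far above every other member. Its probe set gave 49.0 in macrophages and 625 in osteoclasts, 17.2-fold higher relative to the shift and 12.7-fold as deposited. On the log2 scale this is a difference of 4.10, which ranked 28th highest among 13647 genes that at least 1 array measured. The array carries 1 probe set for Ppargc1b, so no second probe set checks the value. The macrophage signal lay 2.88 times above the floor and 1.74 times above the receptor level (28.2), the 95th percentile of probe sets for odour and pheromone receptors, receptors these cells are not known to need. The macrophages thus gave a dim but measured signal, and the difference is not a bound. Ppargc1b was the only 1 of 9 measured members at least 2-fold higher, where 7.11% of all measured genes were, and 0 members were at least 2-fold lower, where 6.99% were. As deposited the counts were again 1 and 0, against 3.0% and 17.5% of all measured genes.

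**Figure D1:**
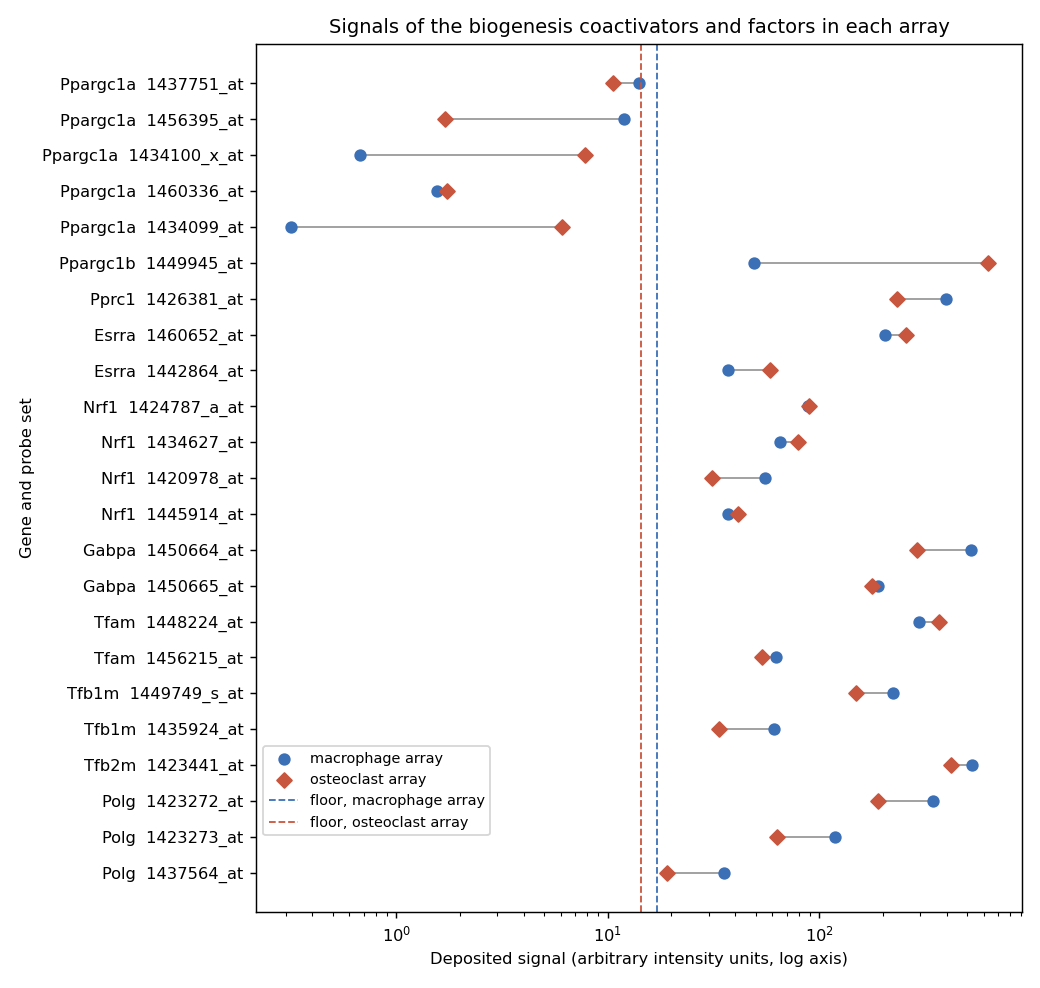
Deposited signal (log axis) of all 23 probe sets of the 10 genes, with circles for the macrophage array and diamonds for the osteoclast array, 1 array each; dashed lines mark each array's floor. The 5 Ppargc1a probe sets lie below both floors, and the longest line above the floors is that of Ppargc1b, from 49.0 to 625.

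The other coactivators did not share this pattern. Ppargc1a encodes PGC-1 alpha, the cold- and fasting-induced family member of brown fat, muscle and liver. It has 5 probe sets, and all were below the floor in both arrays. Its brightest probe set gave 14.0 in macrophages and 10.6 in osteoclasts, and the other 4 ranged from 0.318 to 11.9 in macrophages and from 1.70 to 7.77 in osteoclasts. A signal below the floor does not show that the RNA is absent, and no difference is given for Ppargc1a. Pprc1 encodes the PGC-1-related coactivator, which responds to growth signals. It gave 399 in macrophages and 233 in osteoclasts from its 1 probe set, a difference of -0.34. Both cell types thus gave a measured Pprc1 signal, and the difference was smaller than the SD between probe sets. As deposited the Pprc1 difference was -0.78, beyond that SD. Within the coactivator family, then, relative to the shift, 1 gene was higher in osteoclasts, 1 differed by less than the probe-set spread and 1 was not measured.

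Among the partner factors, Esrra, the orphan nuclear receptor through which PGC-1 proteins raise respiratory genes, was the highest. Its brightest probe set gave 205 in macrophages and 256 in osteoclasts, a difference of 0.75. The dimmer probe set gave 36.9 and 58.7, a difference of 1.10. Both probe sets were therefore higher in the osteoclast array, on the deposited scale too (0.32 and 0.67). Relative to the shift, the difference of the probe set read is above the SD between probe sets and under 2-fold. As deposited, its 0.32 is below that SD.

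Nrf1, a factor that binds the promoters of many respiratory genes, gave 88.1 and 89.6 from its brightest probe set, a difference of 0.46. Its 4 probe sets did not all point one way. A further probe set gave 65.4 and 79.0 (0.71), another 36.9 and 41.4 (0.60), and the remaining probe set gave 55.1 and 30.9 (-0.40). Their mean was 0.34 with an SD of 0.50 between the 4 probe sets, so the Nrf1 difference is not separated from probe-set spread. Gabpa encodes the DNA-binding subunit of GABP, also called NRF-2. Its brightest probe set gave 521 and 289, a difference of -0.42, and the other gave 189 and 177, a difference of 0.34. The Gabpa probe sets thus lay on opposite sides of the shift, and no direction relative to it can be read from them. As deposited both were lower in osteoclasts (-0.85 and -0.094).

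The mitochondrial factors were split. Tfam, the protein that packages mitochondrial DNA and opens its promoters, gave 296 in macrophages and 367 in osteoclasts, a difference of 0.74. A dimmer probe set gave 62.6 and 53.7, a difference of 0.21. Both probe sets of Tfam were above the shift, but as deposited the dimmer one was lower in osteoclasts (-0.22). Tfb2m, the transcription initiation partner of the mitochondrial RNA polymerase, gave 528 and 419 from its 1 probe set. Its difference of 0.10 turns to -0.33 as deposited, so it has no settled sign.

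Tfb1m, which methylates the small ribosomal RNA of mitochondria, gave 223 and 148, a difference of -0.15. Its dimmer probe set gave 60.7 and 33.6, a difference of -0.42. Polg encodes the catalytic subunit of the DNA polymerase that copies mitochondrial DNA, and its 3 probe sets were the most alike of any member. They gave 344 and 190, 119 and 63.4, and 35.6 and 19.0, with differences of -0.42, -0.48 and -0.47 and an SD of 0.031 among them. The osteoclast signal of the dimmest one is under the 95th percentile of receptor probe sets there (25.7). All 3 Polg probe sets were lower in osteoclasts on both scales, and relative to the shift by less than the 0.49 SD between probe sets of a gene in general. As deposited the differences were -0.86, -0.91 and -0.91.

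Ordered by difference, the 9 measured members ran from Ppargc1b through Esrra, Tfam, Nrf1, Tfb2m, Tfb1m, Pprc1 and Gabpa to Polg. Ppargc1b and Esrra were 3.35 apart. The other 7 gaps between neighbours ranged from 0.0048 to 0.36, all under the SD between probe sets, so the order of neighbours below Ppargc1b is not settled. The median of the 9 was 0.10, beside 0.0041 over all measured genes, and without Ppargc1b the median of the remaining 8 was -0.026, with a range from -0.42 to 0.75. Of the 9, 3 lay beyond 1 SD of the shift (Ppargc1b, Esrra and Tfam, all higher), against 41.0% of all measured genes in either direction. Of the 6 members with at least 2 measured probe sets, 4 had all of them on the same side of the shift (Esrra, Tfam, Tfb1m and Polg) and 2 did not (Nrf1 and Gabpa).

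**Figure D2:**
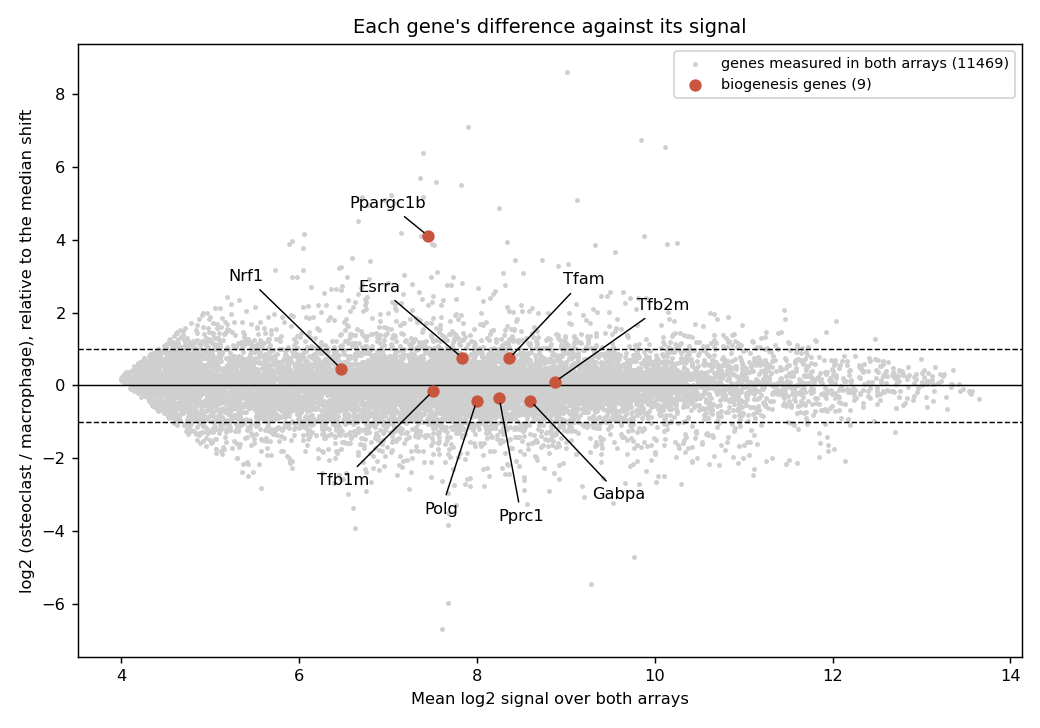
Log2 difference relative to the median shift against mean log2 signal, for 11469 genes measured in both arrays (grey) and the 9 measured biogenesis genes (red); dashed lines mark 2-fold. Ppargc1b lies at 4.10 and the other 8 lie between -0.42 and 0.75, inside the dashed lines.

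The genes whose signals in the 2 arrays lay nearest to Ppargc1b were Itgb3, the integrin beta 3 chain of osteoclasts, Cd109, a surface glycoprotein, and Edil3, a secreted integrin ligand. Their Euclidean distances on the log2 scale were 0.12, 0.17 and 0.19, out of 11468 genes compared over 2 arrays. Itgb3 gave 46.1 and 590, Cd109 54.7 and 598, and Edil3 55.6 and 598. Each of the 3 was dim in macrophages and bright in osteoclasts, which the choice by nearness to Ppargc1b fixed in advance. With 2 arrays this likeness is only that of 2 values, and signals of different probe sets also depend on the probes. Another probe set of Edil3 gave a difference of 0.41 in place of 3.86, and another of Itgb3 gave 2.67 in place of 4.11.

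Genes that regulate PGC-1 proteins or work beside them were read next, from a list of 34, of which 32 had a probe set and 30 were measured. Of these, 2 passed 2-fold upwards and 1 downwards, near the 7.11% and 6.99% of all measured genes, and the median was 0.049. Sirt3, the mitochondrial deacetylase, gave 63.0 in macrophages and 133 in osteoclasts, a difference of 1.52 from 1 probe set. It was also 2-fold higher as deposited. Esrrg, a relative of Esrra, gave 14.5, below the floor, and 31.2. At the receptor level of 28.2 this is, relative to the shift, at least 1.50-fold higher, under 2-fold. Their other relative, Esrrb, gave 63.9 and 43.4, a difference of -0.12, and its 3 measured probe sets ranged from -0.12 to 0.50. Pparg, the nuclear receptor on which PGC-1 alpha was discovered, gave 244 and 80.6, a difference of -1.17, and was 2-fold lower on both scales. As deposited, 1 gene of the list was 2-fold higher and 5 were 2-fold lower, near the 3.0% and 17.5% of all measured genes.

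The list for replication and upkeep of mitochondrial DNA held 18 genes, all measured, with 2 past 2-fold upwards, 0 downwards (7.11% and 6.99% over all measured genes) and a median of 0.065. Twnk, the helicase that works with Polg, gave 78.6 in macrophages and 150 in osteoclasts, a difference of 1.36. Lonp1, the matrix protease that degrades Tfam among other proteins, gave 267 and 464, a difference of 1.23. Both had 1 measured probe set, and neither reached 2-fold as deposited (0.93 and 0.80). Polg2, the accessory subunit of the polymerase, gave 71.2 and 63.4, a difference of 0.26. As deposited, 0 of the 18 were 2-fold higher and 2 were 2-fold lower, against 3.0% and 17.5% over all measured genes.

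Mitochondrial transcription and RNA processing held 28 genes, of which 27 were measured, 4 past 2-fold upwards and 0 downwards (7.11% and 6.99% over all measured genes), with a median of 0.29. Trmt10c, Hsd17b10 and Prorp, which encode the 3 subunits of mitochondrial RNase P, the enzyme that trims the 5′ ends of mitochondrial transfer RNAs, were all among the 4. Trmt10c gave 246 in macrophages and 397 in osteoclasts (1.12), Hsd17b10 848 and 1615 (1.36) and Prorp 36.5 and 72.6 (1.42). That these form one enzyme was noticed after their values were seen. Of the 3 subunits, 0 passed 2-fold as deposited, where the differences were 0.69, 0.93 and 0.99. The fourth gene was Mterf2, a mitochondrial transcription termination family member, with 9.34, below the floor, and 49.4. Relative to the shift it was at least 2.37-fold higher, with the macrophage signal set to the receptor level. The RNA polymerase itself, Polrmt, gave 295 and 230, a difference of 0.078, and so lay at the shift. As deposited, 1 gene of the list was 2-fold higher and 2 were 2-fold lower, against 3.0% and 17.5% over all measured genes.

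**Figure D3:**
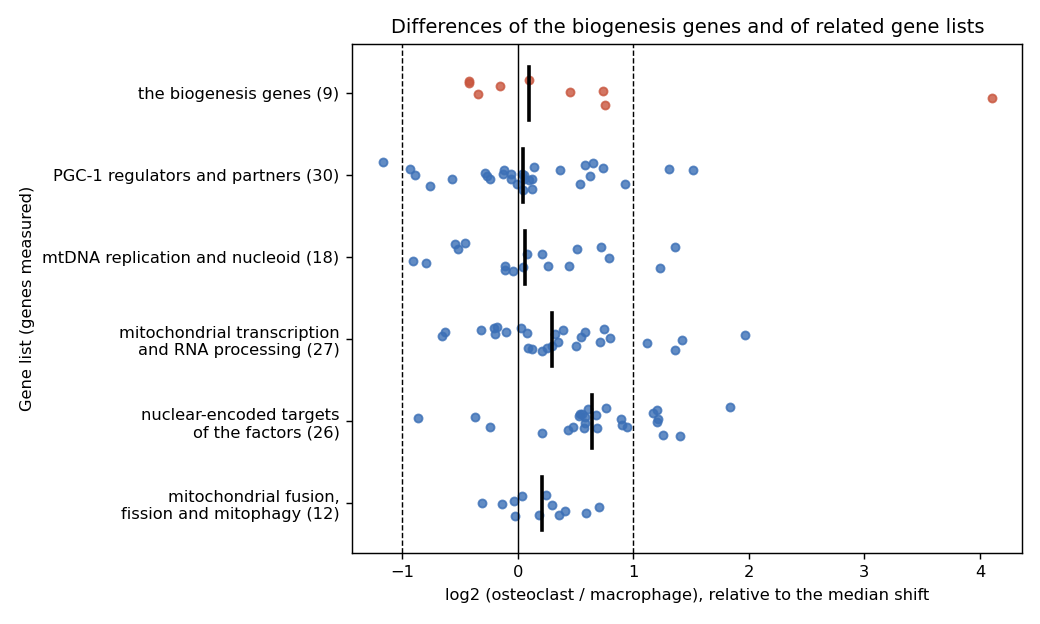
Log2 difference relative to the median shift (horizontal) for each measured gene of the biogenesis set (red) and of 5 related lists (blue), with the number of genes in brackets and a black bar at each median; dashed lines mark 2-fold. The nuclear-encoded targets have the highest list median, 0.64, and Ppargc1b at 4.10 lies to the right of every other gene drawn.

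Known nuclear-encoded targets of these factors lay mostly above the shift. Of 30 genes in the list, 26 had a probe set and were measured. Of those, 23 were above the shift, where 50.3% of all measured genes were, with a median of 0.64 (0.21 as deposited). At least 2-fold higher were 7, and 0 were at least 2-fold lower, against 7.11% and 6.99% over all measured genes. Uqcrfs1, the Rieske protein of complex III, gave 1022 and 2701 (1.83). Atp5g1, a ring subunit of ATP synthase, gave 1352 and 2655 (1.41), and Sod2, the mitochondrial superoxide dismutase, gave 1224 and 2172 (1.26). The remaining 4 were Cs (1.21), Ndufb5 (1.21), Sdhd (1.20) and Idh3a (1.17), genes of the citrate cycle and of complexes I and II. Other probe sets of Sod2 and Idh3a reached down to -0.17 and -0.44, so these are not settled. As deposited, 1 gene of the list was 2-fold higher (Uqcrfs1) and 1 was 2-fold lower, against 3.0% and 17.5% over all measured genes. Thus most targets differed by less than 2-fold, and the list was chosen with earlier results of these arrays known.

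Fusion, fission and mitophagy genes gave 0 of 12 measured genes at least 2-fold apart in either direction, on both scales, with a median of 0.21. Over all measured genes the shares were 7.11% higher and 6.99% lower relative to the shift, and 3.0% and 17.5% as deposited. Relative to the shift the largest differences were in Bnip3, a mitophagy receptor (0.70), and Oma1, an inner membrane protease (0.59), which were 0.27 and 0.16 as deposited. As deposited the largest were in Fundc1, another mitophagy receptor (-0.74), and Mief2, a fission factor (-0.57). The 15 genes encoded by mitochondrial DNA had no probe set with 1 gene symbol and are not analysed here.

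Markers of other cells differed between the arrays as well. All 10 granulocyte markers were above the shift, 9 of them at least 2-fold (7.11% over all measured genes); as deposited 5 of the 10 passed 2-fold (3.0%). Their summed signal was 3397 in macrophages and 6392 in osteoclasts. Elane and Ctsg were below the floor in macrophages, and relative to the shift Ctsg was at least 1.71-fold higher at the receptor level. Stromal and osteoblast markers summed to 11883 and 6005 over 6 genes as deposited, with Col1a2 and Sparc the brightest. Taken against the shift, 4 of the 6 were lower, 0 of them by 2-fold. The other 2, Dcn and Sp7, were higher, and the median was -0.36. Dcn gave 15.3, below the floor, and 37.0, which is 1.77-fold or more at the receptor level. Sp7 differed by 0.13, and other probe sets of Sparc and Col1a1 reached up to 1.23 and 0.77. Adipocyte markers summed to 16.1 and 41.6 over 4, of which 1 was measured. Sums were 119 and 49.5 for 4 B lymphocyte markers, 76.4 and 76.7 for 4 T and NK lymphocyte markers, and 101 and 65.3 for 4 mast cell and basophil markers. Markers below the floor in both arrays were Adipoq, Cidec and Lep of adipocytes, Cd79a and Ms4a1 of B lymphocytes, Cd3e and Cd3g of T lymphocytes, and Ms4a2 of mast cells. Others of these lists were measured, such as Cd79b (64.7 in macrophages and 16.4 in osteoclasts), Cd8a (48.7 and 23.2), Cd5 (12.9, below the floor, and 44.9) and Mcpt8 (72.2 and 29.1). The osteoclast signals of Cd79b and Cd8a are under the receptor level of that array (25.7). The part of these cells in the differences above was not tested, and fewer cells of a type cannot be told apart from less RNA per cell in such bulk samples.

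**Figure D4:**
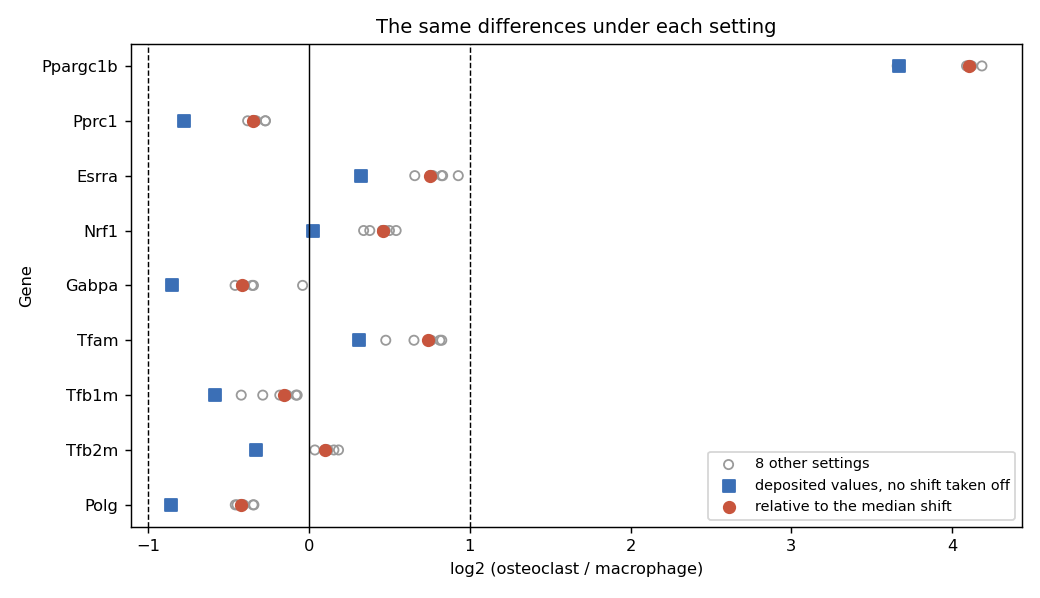
Log2 osteoclast over macrophage (horizontal) of each measured biogenesis gene under 10 settings, with red circles relative to the median shift, blue squares as deposited and open circles for the other 8; dashed lines mark 2-fold. Ppargc1b stays between 3.66 and 4.18, and Tfb2m is the 1 gene whose sign differs between settings.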

How the data were processed

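The deposited table holds 1 linear intensity per probe set and array, 45101 in each, none negative. How the authors condensed, background-corrected and scaled these intensities, and any detection calls were not given in the sources used here. The medians without 64 control probe sets were 27.0 and 22.8. Probe sets were named from the platform annotation (34945 with 1 gene symbol, 932 with several and 9160 with none), whose identifiers matched the RefSeq table of GRCm38.p6 for 34741. Differences are log2, with signals below the floor raised to it, minus the median shift. Where a fold is given as "at least", the dimmer signal was set to the receptor level, the 95th percentile over 80 receptor probe sets. Precision is limited by the number of arrays.

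All members are named and their probe sets described, with every list gene at least 2-fold apart (otherwise the list's 2 largest differences), the 3 genes nearest to Ppargc1b, and marker genes. Further genes named were chosen after their values were seen. Members and lists were chosen with earlier results of these data known. The procedure was tested on simulated data. The genes changed there were brighter than Ppargc1b is in macrophages, and the noise put in was below the SD between probe sets found here. The simulation therefore does not cover a gene as dim as Ppargc1b in macrophages. Python 3.11.15, pandas 2.3.3 and statsmodels 0.14.6 were used.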

Additional observations from a re-analysis of the deposited data

How the results depend on the processing

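Leaving the deposited scale in place, without taking off the shift, changed the most. The members' median became -0.33, and counts of genes at least 2-fold higher and lower became 1 and 5 for PGC-1 regulators and partners, 0 and 2 for mitochondrial DNA replication, 1 and 2 for mitochondrial transcription and RNA processing, and 1 and 1 for the nuclear-encoded targets. With the floor at the 95th percentile of receptors, and with log2(value + 16) in place of a floor, the regulators had 1 gene at least 2-fold higher. With the mean over a gene's probe sets, 1 target was at least 2-fold lower. Under all 9 alternatives (scaling by quantiles, lowess or trimmed means, both other floors and both other probe-set rules included) 1 member was at least 2-fold higher and 0 were lower. Each of the 9 measured members moved by less than the SD between probe sets, and 8 kept their sign, while Tfb2m was at -0.33 as deposited. For the deposited scale the size of the move was fixed in advance. It is the shift of 0.43 for every member, which is below the SD of 0.49. Several other settings could hardly move a member either. Without a floor all 9 kept their values, because the probe sets read lie above it. The receptor floor and trimmed-mean scaling each moved every member by the same small amount. Ppargc1b has 1 probe set, so neither probe-set rule could change it. Its stability under these settings is therefore no separate check. Ppargc1b ranged from 3.66 to 4.18. No paired analysis was possible because each group has 1 array, and no replicate could be left out. Dim signals limit Ppargc1a, Esrrg and Mterf2.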

Other observations

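A few of the known targets lay below the shift and were singled out after their values were seen. Cpt1a, which commits long-chain fatty acids to entry into mitochondria, gave 849 in macrophages and 346 in osteoclasts, a difference of -0.86, and its 3 measured probe sets ranged from -1.24 to -0.86. Tomm34, an import cochaperone, gave 618 and 354 (-0.37), and Alas1, the first enzyme of heme synthesis, gave 1128 and 709 (-0.24).

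Some regulators of PGC-1 were just short of 2-fold relative to the shift. Rxra and Prkaa1, the latter a catalytic subunit of the energy sensor AMPK, were at -0.93 and -0.89, and as deposited at -1.37 and -1.32, past 2-fold. Rxrb was at 0.93, and 0.49 as deposited. Probe sets of the corepressor gene Nrip1 ranged from -0.96 to 1.51 over 6, and those of Pnpt1, a mitochondrial RNA-degrading enzyme, from -0.12 to 1.99 over 3. The value of either gene thus rests on the probe set chosen. Other list genes also had probe sets on both sides of the shift, such as Lig3 (-0.54 to 1.43 over 4) and Med1 (-0.70 to 1.09 over 6).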
